A study of Saccharomyces cerevisiae with 5 samples.

Results

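Genes that carry budding yeast (Saccharomyces cerevisiae) from G1 into S phase were followed here: 30 regulators and DNA replication genes, of 6205 open reading frames (ORFs) with a spot on the arrays. They were chosen as a named list of G1/S cyclins, transcription factors and replication proteins and matched by ORF identifier, and all 30 were found. Cells from an overnight culture (YP, a rich medium, with 2% glucose) were moved at a starting OD600 of 0.1 into fresh YP holding either 2% or 20% glucose and sampled 1 hour later. Each of 5 arrays compared RNA of both media in 2 colours. Arrays 1, 3 and 4 carried the 20% sample in Cy3, and arrays 2 and 5 carried it in Cy5. The labels give no strain, genotype or culture for any array, so both media are described only by their glucose content.

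In late G1 the cyclin Cln3, with the kinase Cdc28, relieves the repressor Whi5 from the transcription factor SBF (Swi4 and Swi6). SBF and the related MBF (Mbp1 and Swi6) then switch on a wave of genes for further cyclins, for DNA synthesis and for bud growth. The products of this wave commit the cell to division, open the replication origins and copy the chromosomes. A culture mixes cells of all phases, so a larger share of cells near G1/S and more G1/S RNA in each such cell cannot be told apart in these data.

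All values are log2 ratios, with the RNA labelled 20% glucose set over that labelled 2% as the dye labels give them. Known markers of glucose and osmotic stress run against those labels. GPD1, the osmostress-induced glycerol enzyme, was at -2.02, -1.78, -2.42, -6.88 and -6.51 on arrays 1 to 5. HXT1, a transporter induced by high glucose, was at -2.36, -2.73, -3.70, -2.14 and -1.95. Both are lower under the 20% label on every array. An exchange of the dye labels would turn each sign given here, and the differences between arrays would keep their size.

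The arrays fall into 2 sets. Across genes, the log2 ratios of arrays 4 and 5 correlated at 0.95 and those of arrays 2 and 3 at 0.86. Array 1 correlated at 0.60 and 0.62 with arrays 2 and 3, and the arrays of different sets correlated at 0.26 to 0.37. The labels do not say whether any arrays are separate cultures or dye swaps of shared RNA, so p-values measure only the spread between arrays, which may be technical. Whatever else differed between the sets cannot be told apart from the set. The SD of a member over arrays 1 to 3 had a median of 0.24, against 0.16 for all genes, and over arrays 4 and 5 it was 0.05, against 0.06. On the scanned arrays 4 and 5 the dimmer channel of the 30 member spots had a median of 10.8 and 7.70 times local background, and only YOX1 on array 5 was under 2 times background, at 1.73.

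Most G1/S and replication genes lay on opposite sides of 0 in the 2 sets. Under the 20% label their median was -0.17 on array 1, -0.44 on array 2 and -0.23 on array 3, and 0.54 on array 4 and 0.54 on array 5. On arrays 1, 2 and 3 the values lay below 0 for 22 of 27, 24 of 26 and 21 of 27 measured members. On arrays 4 and 5 they lay above 0 for 26 of 30 and 25 of 28. Over all genes the median of each array was within 0.011 of 0, and 48.6% to 49.7% of genes lay above 0.

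**Figure D1:**
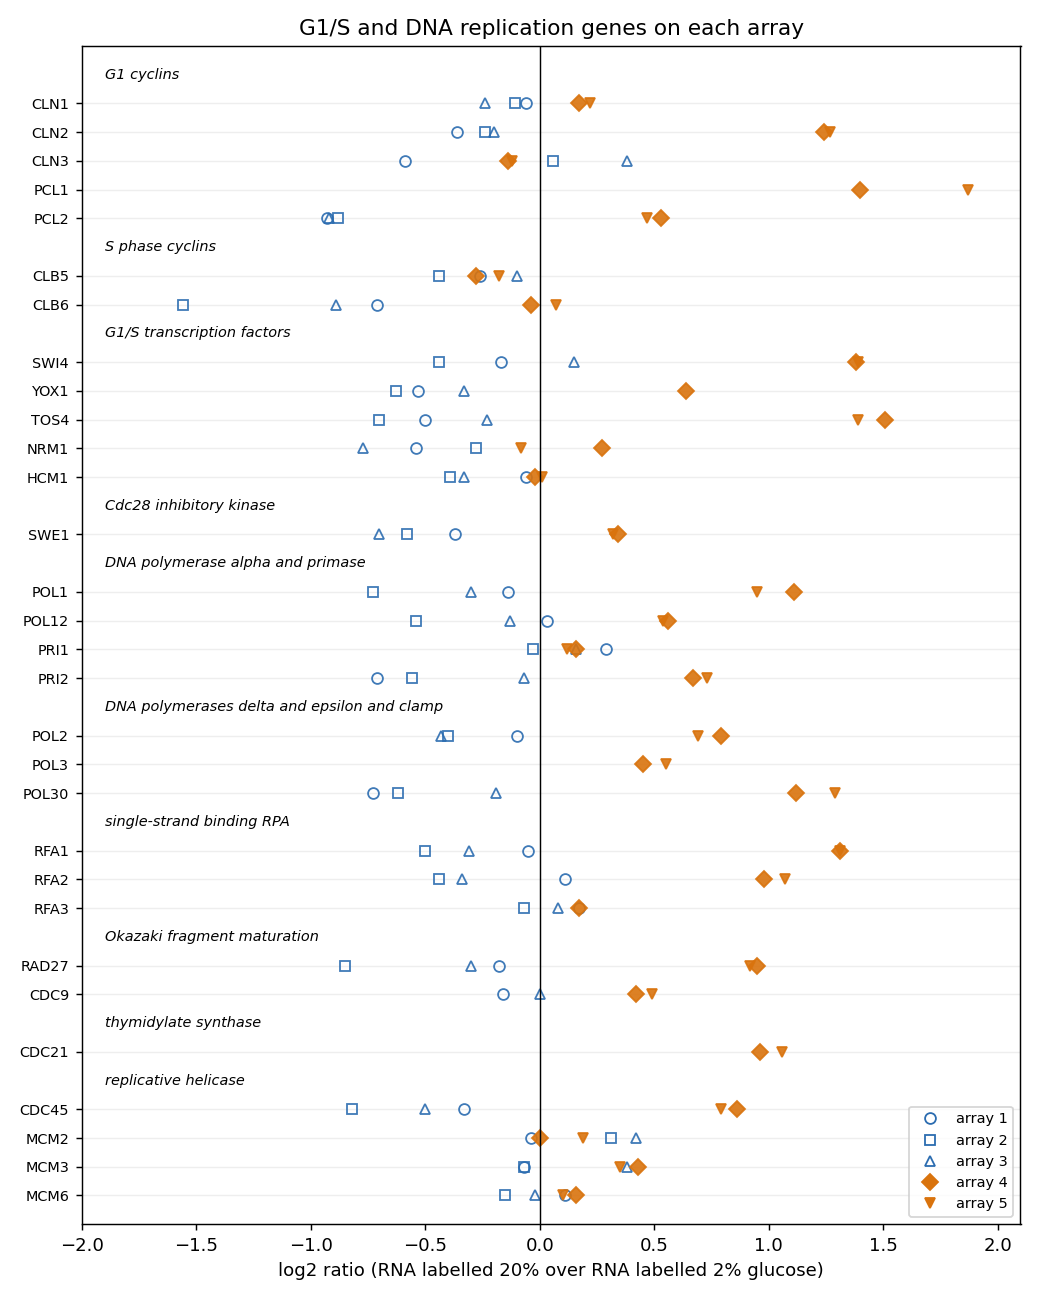
Log2 ratio, 20% over 2% label (horizontal axis), of each of the 30 members, grouped by role, on arrays 1 to 3 (open blue symbols) and arrays 4 and 5 (filled orange symbols). The orange symbols lie to the right of the blue ones for most polymerase, RPA and cyclin genes, while CLN3, CLB5, PRI1 and the MCM genes overlap.

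The difference between the sets was tested with limma across 5447 genes, in 1 fit with a term for the dye. Of the 27 members with values on at least 4 arrays, 16 had a higher ratio on arrays 4 and 5 and 0 a lower one. Over all genes tested 6.61% were called higher and 6.17% lower. The median difference of the members was 1.07, against 0.01 over all genes. The remaining 11 did not pass, and PCL1, POL3 and CDC21 have no value on arrays 1 to 3 and were not tested. The count was 9 without array 2, 8 without array 4 and 9 without array 5, where 3.64%, 1.45% and 3.52% of all genes were called in either direction, against 12.8% with all arrays. Of the 16 genes, 7 passed whichever array was left out (SWI4, TOS4, POL1, POL30, RFA1, RAD27 and CDC45). Each of CLN2, PCL2, CLB6, YOX1, SWE1, POL12, PRI2, POL2 and RFA2 lost its call with at least 1 array left out. With an array left out, the estimates of the 16 genes stayed between 0.666 and 1.45 times their value. The fits without array 2 and without array 5 are not separate checks. With the dye term, both compare array 4 with arrays 1 and 3. The main fit does the same for YOX1, RFA3 and CDC9, which lack a value on array 2 or array 5.

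The separation can also be read from the single values. Of 25 members with both values on arrays 4 and 5 and at least 2 on arrays 1 to 3, 19 had every value of arrays 4 and 5 above every value of arrays 1 to 3, and 0 had the reverse. Of all 5051 such genes, 30% were separated upward and 29.1% downward. A stricter pattern, with each measured value below 0 on arrays 1 to 3 and above 0 on arrays 4 and 5, held for 13 of the 25 members and for 8.79% of all such genes. The 13 include CDC9, which has no value on array 2 and lies just below 0 on array 3.

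**Figure D2:**
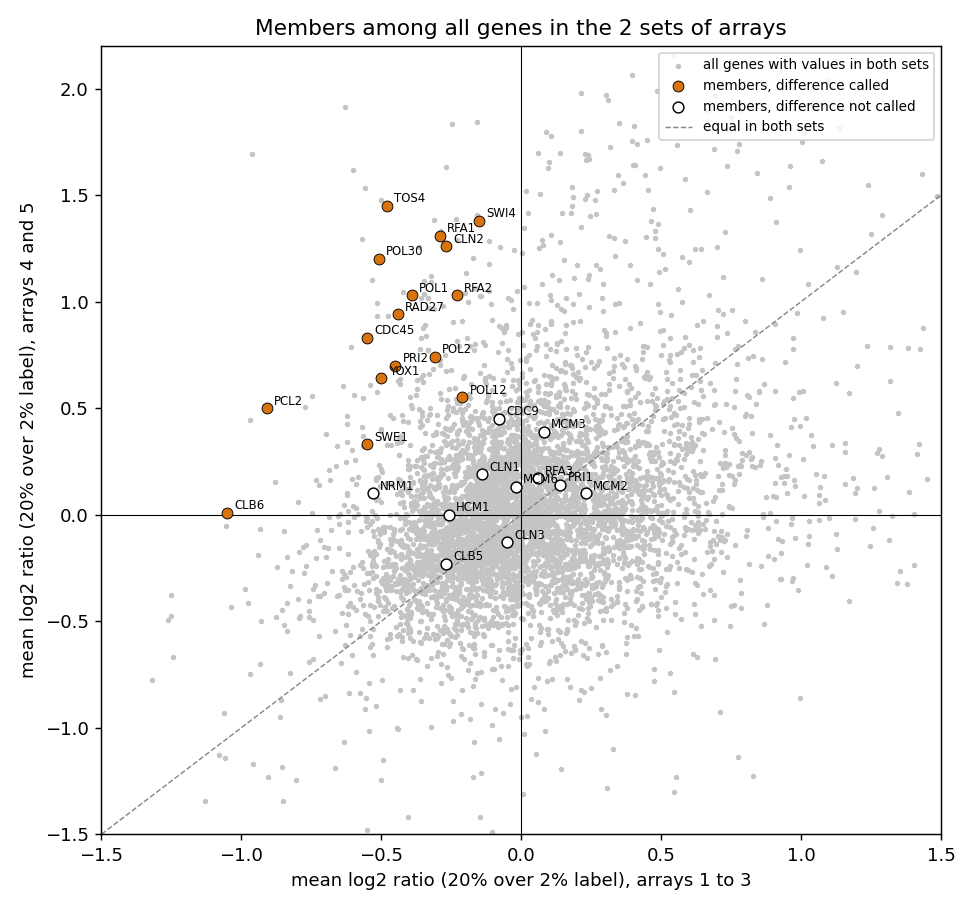
Mean log2 ratio on arrays 1 to 3 (horizontal) against the mean on arrays 4 and 5 (vertical) for all genes (grey) and for members whose difference passed (orange) or did not pass (white) the threshold. Of 5647 genes with values in both sets, 105 lie outside the axes. The called members sit in the upper left, below 0 on arrays 1 to 3 and above 0 on arrays 4 and 5, with CLB6 near 0 on the vertical axis.

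Within each set the fits have 1 residual degree of freedom per gene and lean on the spread shared over genes. On arrays 1 to 3 the limma fit called 10 of 26 members lower and 0 higher, where 5.96% of all genes were called lower and 11.5% higher. Over all genes 17.4% were called in either direction. The count was 3 of 27 without array 2, where 9.54% of all genes were called, which is near that background. It was 3 of 26 without array 3, where 4.38% were called, and PCL2 and CLB6 were the 2 that passed whichever array was left out. On arrays 4 and 5 it called 20 of 28 members higher and 1, CLB5, lower, where 27.9% and 26.6% of all genes were called, 54.4% in all. The count within arrays 4 and 5 stands against that wide background.

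Over all 5 arrays together the opposite signs cancelled. The limma fit called 0 of 27 members, against 3.69% of all genes (2.24% higher). Only CLB5 of the members had an unadjusted p under 0.05 (0.0222 by limma), as had 1551 of all 5447 genes tested. The median estimate was 0.07. When the fit held a term for the set, and so weighted both sets equally, 7 members passed: CLN2, SWI4, TOS4, POL1, RFA1 and RFA2 higher and CLB6 lower, where 29.7% of all genes passed. The values of CLB5 share a sign on the 5 arrays: -0.26, -0.44, -0.10, -0.28 and -0.18.

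Among the G1 cyclins, CLN2 and its paralog CLN1, the cyclins that drive Start with Cdc28, differed in size. CLN2 was at -0.36, -0.24 and -0.20 on arrays 1 to 3 and at 1.24 and 1.27 on arrays 4 and 5. The sets do not overlap, and the difference was 1.52 ± 0.13 (SE), with an adjusted p of 0.00446 by limma. CLN1 was at -0.06, -0.11 and -0.24 and then at 0.17 and 0.22. Its sets do not overlap either, but the difference of 0.33 ± 0.13 did not pass (adjusted p = 0.162 by limma). The gap of CLN2 over CLN1 was 1.07 and 1.05 on arrays 4 and 5, and -0.30, -0.13 and 0.04 on arrays 1 to 3. On the scanner, the CLN2 spot of array 4 read 892 under the 20% label and 425 under the 2% label, before backgrounds of 99 and 73 were subtracted, and that of array 5 read 803 and 335. The CLN1 spot read 1779 and 1600 on array 4 and 1097 and 804 on array 5. Paralogous spots may take up some of each other's RNA.

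CLN3, the cyclin that acts upstream of SBF, had no common direction. It was at -0.59, 0.06 and 0.38 on arrays 1 to 3 and at -0.14 and -0.12 on arrays 4 and 5, so the spread within arrays 1 to 3 exceeded the gap between the sets (adjusted p = 0.851 by limma).

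PCL1 and PCL2 are G1 cyclins of the second cyclin-dependent kinase, Pho85. PCL1 had the highest mean ratio of the members on arrays 4 and 5, with 1.40 and 1.87, a mean 3.11-fold above the 2% label (adjusted p = 0.00188 within these 2 arrays by limma). Its dimmer channel was 3.52 and 2.43 times background there. PCL2 was at -0.93, -0.88 and -0.92 on arrays 1 to 3, the tightest of the lowered members, and at 0.53 and 0.47 on arrays 4 and 5. It was therefore lower in the first set (adjusted p = 0.00104), higher in the second (adjusted p = 0.00399), and differed by 1.41 ± 0.13 between them (adjusted p = 0.00489, all by limma).

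The S phase cyclins CLB5 and CLB6, which activate Cdc28 for origin firing, gave different calls. CLB5 overlapped between the sets, with a difference of 0.05 ± 0.15. CLB6 had the lowest mean of the members on arrays 1 to 3, with values of -0.71, -1.56 and -0.89 and a mean of -1.05 ± 0.45 (SD, n = 3). On arrays 4 and 5 it was near 0, at -0.04 and 0.07. The difference of 1.13 ± 0.23 passed (adjusted p = 0.0308 by limma), but without array 2 the estimate was 0.75 and did not pass (adjusted p = 0.183 by limma). Without array 5 the estimate was again 0.75 and did not pass. With the dye term both fits compare array 4 with arrays 1 and 3 only.

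SWI4, the DNA-binding subunit of SBF, was at -0.17, -0.44 and 0.15 on arrays 1 to 3 and at 1.38 and 1.39 on arrays 4 and 5. It did not pass within arrays 1 to 3 and was 2.61-fold higher under the 20% label on arrays 4 and 5. The difference was 1.58 ± 0.18 (adjusted p = 0.00772 by limma). TOS4, an SBF target with a forkhead-associated domain, had the largest difference of the members, 1.97 ± 0.15 (3.91-fold, adjusted p = 0.00405 by limma). Its values were -0.50, -0.70 and -0.23 on arrays 1 to 3 and 1.51 and 1.39 on arrays 4 and 5, so that it was lower in the former and higher in the latter. Its spot was among the dimmer ones, with the 2% channel at 285 over a background of 93 on array 4 and 174 over 68 on array 5.

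The repressors YOX1 and NRM1, the factor HCM1 and the kinase SWE1 varied. YOX1, a homeodomain repressor of genes of the M/G1 boundary, was at -0.53, -0.63 and -0.33 on arrays 1 to 3 and at 0.64 on array 4, with no table value on array 5. Its difference of 1.07 ± 0.20 passed in limma. It compares array 4 with arrays 1 and 3 alone, since the dye term takes up array 2. Without array 2 the estimate was the same and did not pass. It also did not pass when array 5, where it has no value, was left out of the fit for all genes (adjusted p = 0.0649 by limma). NRM1, the corepressor that ends MBF transcription, was lower on arrays 1 to 3 (-0.54, -0.28 and -0.77, adjusted p = 0.0362 by limma). On arrays 4 and 5 it had opposite signs, at 0.27 and -0.08, and its difference did not pass (0.62 ± 0.20, adjusted p = 0.101 by limma). The forkhead factor HCM1, which acts in S phase, was at -0.06, -0.39 and -0.33 and then at -0.02 and 0.01. SWE1, the kinase that inhibits Cdc28 before mitosis, was at -0.37, -0.58 and -0.70 on arrays 1 to 3 and at 0.34 and 0.32 on arrays 4 and 5. It passed in each set in opposite directions, and the difference was 0.88 ± 0.15 (adjusted p = 0.0221 by limma). The call of the difference was lost without array 4, and also without array 2 or array 5.

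**Figure D3:**
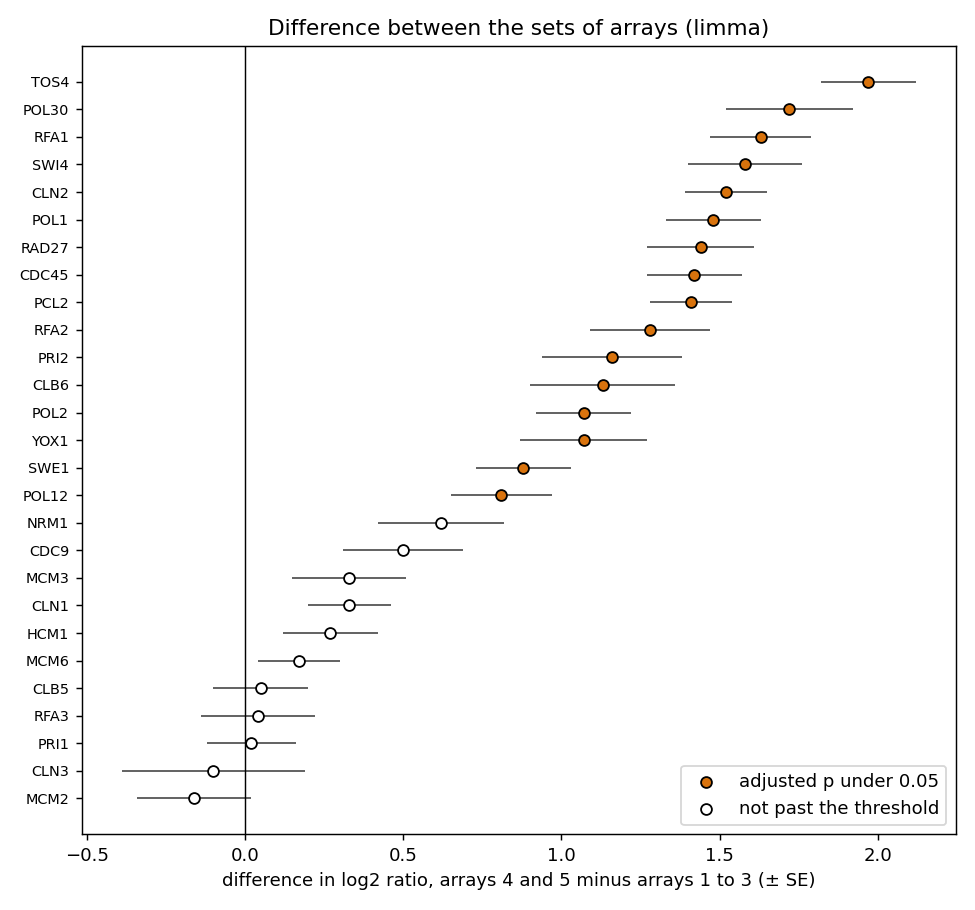
Difference in log2 ratio, arrays 4 and 5 minus arrays 1 to 3, with its SE from limma (bars), for the 27 members tested, sorted by size. Filled points passed the adjusted threshold of 0.05: they run from POL12 at 0.81 to TOS4 at 1.97, and the lowest estimate is that of MCM2, at -0.16.

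Of the DNA polymerase alpha and primase complex, which lays the RNA-DNA primers, 3 of 4 subunits had a higher ratio on arrays 4 and 5. POL1, the catalytic polymerase subunit, was at -0.14, -0.73 and -0.30 and then at 1.11 and 0.95 (difference 1.48 ± 0.15, adjusted p = 0.00604 by limma). PRI2, the large primase subunit, was at -0.71, -0.56 and -0.07 and then at 0.67 and 0.73 (1.16 ± 0.22, adjusted p = 0.0263 by limma). POL12, the regulatory subunit, had a smaller difference of 0.81 ± 0.16 (adjusted p = 0.0318 by limma). The catalytic primase subunit PRI1 stood apart from its partners, with values of 0.29, -0.03 and 0.16 on arrays 1 to 3 and 0.16 and 0.12 on arrays 4 and 5, a difference of 0.02 ± 0.14.

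Of the other replicative polymerases and their clamp, POL30 and POL2 had a higher ratio on arrays 4 and 5. The difference of POL3 between the sets could not be tested. POL30, which encodes the sliding clamp PCNA, was at -0.73, -0.62 and -0.19 on arrays 1 to 3 and at 1.12 and 1.29 on arrays 4 and 5. Its difference of 1.72 ± 0.20 (3.30-fold, adjusted p = 0.00876 by limma) was second to that of TOS4. POL2, the catalytic subunit of the leading-strand polymerase epsilon, was at -0.10, -0.40 and -0.43 and then at 0.79 and 0.69 (1.07 ± 0.15, adjusted p = 0.014 by limma). POL3, that of the lagging-strand polymerase delta, has values on arrays 4 and 5 alone, of 0.45 and 0.55 (adjusted p = 0.00461 within these by limma).

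Of RPA, the heterotrimer that coats single-stranded DNA, 2 of 3 subunits passed. RFA1, the large subunit, was at -0.05, -0.50 and -0.31 on arrays 1 to 3 and at 1.31 and 1.31 on arrays 4 and 5 (difference 1.63 ± 0.16, adjusted p = 0.00556 by limma). RFA2, the middle subunit, was at 0.11, -0.44 and -0.34 and then at 0.98 and 1.07 (1.28 ± 0.19, adjusted p = 0.0161 by limma). The small subunit RFA3 was at 0.17, -0.07 and 0.08 and at 0.17 on array 4, with no table value on array 5, and its difference was 0.04 ± 0.18 (adjusted p = 0.908 by limma). On array 5 the scanner file gives RFA3 a ratio of 0.52 on a spot at 11.3 times background, the highest of its values.

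Among the enzymes that finish Okazaki fragments, RAD27, the flap endonuclease, was at -0.18, -0.85 and -0.30 on arrays 1 to 3 and at 0.95 and 0.92 on arrays 4 and 5. Its difference passed (1.44 ± 0.17, adjusted p = 0.00928 by limma). CDC9, the DNA ligase that seals the nicks, was at -0.16 and 0.00 on arrays 1 and 3 and at 0.42 and 0.49 on arrays 4 and 5, and its difference did not pass (0.50 ± 0.19, adjusted p = 0.157 by limma). CDC21, the thymidylate synthase that makes the thymine nucleotide, was at 0.96 and 1.06 on arrays 4 and 5, 2.01-fold above the 2% label (adjusted p = 0.000937 within these by limma).

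CDC45, the factor that joins the MCM ring to form the active helicase, was at -0.33, -0.82 and -0.50 on arrays 1 to 3 and at 0.86 and 0.79 on arrays 4 and 5. The difference was 1.42 ± 0.15 (adjusted p = 0.00677 by limma), with a lower call in the former and a higher call in the latter set. MCM2, MCM3 and MCM6 belong to the ring itself, whose RNA is known to peak earlier, around the M/G1 boundary. Their differences were -0.16 ± 0.18, 0.33 ± 0.18 and 0.17 ± 0.13, and all 3 overlapped between the sets. Of these MCM3 passed within arrays 4 and 5, with values of 0.43 and 0.35 there (adjusted p = 0.00738 by limma).

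Other genes of the same pathways, taken from lists that hold none of the 30, were set beside the members. Over all genes tested, 6.61% were called higher on arrays 4 and 5 and 6.17% lower. Of 29 tested genes known to be expressed at G1/S, 20 had a higher and 1 a lower ratio on arrays 4 and 5. The lower one was TOS8 (-0.73 ± 0.14). The list had a median of -0.31 on arrays 1 to 3 and 0.62 on arrays 4 and 5. SVS1 and TOS6, which encode cell surface proteins, differed by 2.57 ± 0.24 and 1.97 ± 0.13. CSI2 differed by 1.42 ± 0.13 and the mismatch repair gene MSH6 by 1.72 ± 0.14. Of 16 further G1/S control genes 4 were higher and 1, CDC53, was lower (-0.70 ± 0.13). WHI5, the repressor of SBF, differed by 1.32 ± 0.16, MSA2, a Start regulator, by 1.34 ± 0.24, the Cdc28 inhibitor FAR1 by 1.05 ± 0.17 and STB1, a Swi6-binding protein, by 1.00 ± 0.15. Of 33 further fork and origin genes 7 were higher and 0 lower. MRC1 of the replication checkpoint differed by 1.17 ± 0.14, the clamp loader subunit RFC5 by 1.02 ± 0.14, POL32 of polymerase delta by 0.96 ± 0.13 and ELG1, of an alternative clamp loader, by 0.82 ± 0.13. By limma the 12 named genes with a higher ratio had adjusted p from 0.00329 to 0.0234. For CDC53 and TOS8 the adjusted p by limma was 0.0248 and 0.0297. The lists were chosen with earlier results of these data known.

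Genes of other cell cycle phases gave mixed counts, beside 6.61% of all genes called higher and 6.17% called lower. Of 15 G2/M genes tested limma called 0, with 1 at an unadjusted p under 0.05, CLB3 (0.41 ± 0.14). Of all 5447 genes tested, 1722 had an unadjusted p under 0.05. HOF1 of cytokinesis was at 0.50 ± 0.24, the anaphase activator CDC20 at 0.94 ± 0.49 and the mitotic cyclin CLB2 at 0.47 ± 0.27. HOF1 lacks a value on array 5 and CDC20 on array 2. With the dye term both estimates compare array 4 with arrays 1 and 3 only. The HOF1 value on array 2, 0.76, is thus left out of its estimate. Of 10 histone genes, whose RNA peaks in S phase, HHO1 was higher (0.83 ± 0.18) and HTB1 lower (-0.90 ± 0.17), while HHT2 (-0.53 ± 0.14) and HHF2 (-0.48 ± 0.19) did not pass. The histone median was -0.08 on arrays 1 to 3 and -0.28 on arrays 4 and 5. Of 15 M/G1 genes 5 were higher and 1 lower. Among them were the daughter cell separation genes DSE4 (1.61 ± 0.13) and SCW11 (1.5 ± 0.15), the transcription factor TEC1 (1.41 ± 0.14) and the chitin synthase CHS1 (-1.21 ± 0.18). No list was tested against another.

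Markers of stationary phase cells, which an overnight inoculum can carry over, differed between the sets for 5 of 7 tested. All 5 had a higher ratio on arrays 4 and 5, where 6.61% of all genes were called higher. The list had a median of 0.10 on arrays 1 to 3 and 0.90 on arrays 4 and 5. SNO1 and SNZ1 of vitamin B6 synthesis differed by 2.33 ± 0.18 and 1.31 ± 0.24, the small heat shock protein HSP26 by 1.43 ± 0.18 and the stress hydrophilin GRE1 by 1.26 ± 0.25. SPG5 ran the other way without passing, with means of 0.42 and -0.22 (difference -0.65 ± 0.33). FMP45 had a mean of -0.86 on arrays 1 to 3 and a value of -0.87 on array 4, with none on array 5. Its difference of 0.01 ± 0.19 compares array 4 with arrays 1 and 3 only, given the dye term. The list's mean ratios ran from -0.97 to 0.49 on arrays 1 to 3 and from -0.87 to 2.26 on arrays 4 and 5. Whether these genes mark carried-over cells here was not tested. The part of such cells in the G1/S difference was not tested either.

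**Figure D4:**
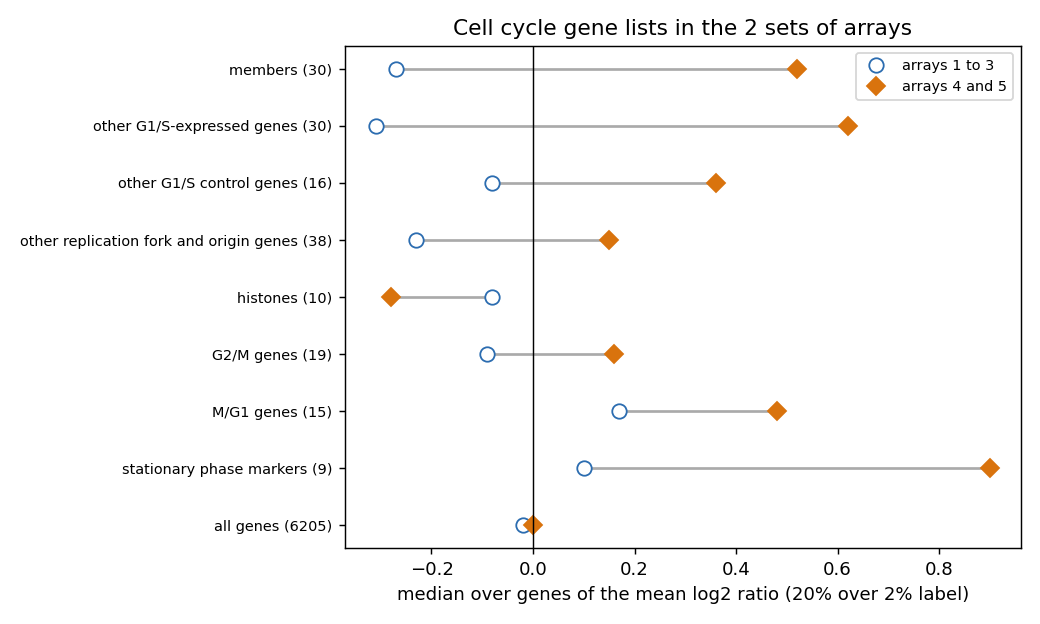
Median over genes of the mean log2 ratio on arrays 1 to 3 (open circles) and on arrays 4 and 5 (filled diamonds) for the 30 members, for the other lists and for all genes, with the number of genes in brackets. The members lie at -0.27 and 0.52, the histones at -0.08 and -0.28 and all genes at -0.02 and 0.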

How the data were processed

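RNA from 2 media was compared on 5 two-colour arrays. The log2 ratios of the table were deposited by the authors after normalization within each array, to a median near 0. Their software is not stated in the sources. Scanner files, deposited for arrays 4 and 5, give per the file headers the intensity of spot and background in each channel, log2 ratios, and a flag, a quality score, which was 0 for all member spots. Values of 10 or more in size on arrays 4 (258) and 5 (262) are a decimal slip and were divided by 10, which raised their correlation with the scanner ratios from 0.775 to 0.991 and from 0.770 to 0.964. Signs were turned to 20% over 2% by the dye labels; for arrays 1 to 3 scale and direction could not be set against scanner values and were taken as in the other columns. Spots of an ORF were averaged (6218 spots), and names come from a RefSeq table (R64), which held 5705 of 6205 ORFs and all members.

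Limma 3.58.1 in R 4.3.3 was used (lmFit, eBayes, two-sided, Benjamini-Hochberg over all genes tested, threshold 0.05), for genes with at least 4 values (all values within a set). Covariates were the dye and, for the difference, the set of arrays. The difference fit leaves 2 residual degrees of freedom for genes with 5 values, and fewer for genes with 4. Fits within 2 arrays, such as arrays 4 and 5, hold no dye term. The procedure was run on simulated data with independent noise on each array, which does not cover arrays that share RNA. Other listed genes are named by the 4 smallest p of the difference per list. TOS8 and CDC53 are also named, as the lower calls of their lists. Members and lists were chosen with earlier results of these data known. The number of arrays limits the precision. Alternatives were other values for arrays 4 and 5, scalings, filters, fits and arrays left out.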

Additional observations from a re-analysis of the deposited data

Results flagged for a closer look

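The following 16 members are listed because their ratio differed between arrays 4 and 5 and arrays 1 to 3 in the limma test of the difference itself. The differences in log2 ratio were 1.52 for CLN2, 1.41 for PCL2, 1.13 for CLB6, 1.58 for SWI4, 1.07 for YOX1, 1.97 for TOS4 and 0.88 for SWE1. For the replication genes they were 1.48 for POL1, 0.81 for POL12, 1.16 for PRI2, 1.07 for POL2, 1.72 for POL30, 1.63 for RFA1, 1.28 for RFA2, 1.44 for RAD27 and 1.42 for CDC45. All 16 are higher on arrays 4 and 5. No cause of the difference between the sets was tested. None of the 27 members with 4 or 5 values had a single array standing apart from the others by Dixon's criterion. Where the 2 sets lie apart, as for most members, that criterion can hardly flag a single array, so it says little about outlying arrays.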

How the results depend on the processing

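The 16 differences between the sets kept their call with scanner ratios, with normexp and loess, with dim spots left out, with arrays scaled or centred, with a robust prior and without the dye term. With genes of 5 values only, 15 of 24 members passed, where 15.8% of all such genes did. With the values as deposited, decimal slip included, 8 passed, where 5.98% of all genes did. Leaving out 1 array gave 8 to 19 for the difference and 3 to 15 for arrays 1 to 3, with the higher counts without array 1, where 46.8% and 37.5% of all genes passed against 12.8% and 17.4% with all arrays. Without array 1 the difference was called higher for 18 of 24 members and lower for 1. Within arrays 1 to 3, leaving out array 1 gave 14 lower and 1 higher. The cause of the higher counts was not tested. Within arrays 4 and 5, 14 to 22 members passed under the alternatives, where 23.8% to 57.5% of all genes did, and leaving out an array left 1 array and no test. Over all 5 arrays, 7 members passed (6 higher, 1 lower) with the set as a term, a fit that weights the sets equally, and 0 under every other alternative, with 0 to 4 at an unadjusted p under 0.05. Over all genes, 3.69% passed, 0.0184% as deposited, 16.9% without the dye term, 29.7% with the set as a term, and 0 to 1.86% with an array left out. With the set as a random block (correlation 0.528), 0.0184% of all genes passed and 0 members had an unadjusted p under 0.05. The member median on arrays 4 and 5, 0.522, was 0.498 with scanner ratios, 0.557 with normexp and loess, 0.526 after centring and 0.542 to 0.543 with 1 array. No paired analysis was possible because the samples form 1 group, with no other group to share replicate numbers; each ratio already pairs both media on 1 array. Each set is small, and spots near background, such as YOX1 on array 5, limit single values.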

Other observations

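The MCM ring was measured in full when MCM4, MCM5 and MCM7, chosen here after their values were seen, are set beside the 3 members. The MCM7 mean was -0.03 ± 0.30 (SD, n = 3) over arrays 1 to 3. Over arrays 4 and 5 it was 0.96 ± 0.02 (SD, n = 2), a difference of 0.98 ± 0.20 with a limma adjusted p of 0.0332. MCM4 (0.59 ± 0.15) and MCM5 (0.39 ± 0.18) did not pass, with limma adjusted p of 0.0544 and 0.208. The 6 subunits ran from -0.16 for MCM2 to 0.98 for MCM7.

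In the RefSeq gene order, 7 members lie next to a gene of another list. POL30 (1.72 ± 0.20) lies beside the clamp loader gene RFC5 (1.02 ± 0.14), TOS4 (1.97 ± 0.15) beside SWI6 (0.44 ± 0.13), the shared subunit of SBF and MBF, and CLB6 (1.13 ± 0.23) beside the mitotic cyclin CLB1 (0.15 ± 0.20). The RFC5 difference passed and those of SWI6 and CLB1 did not. CLB1 has no value on array 5, so with the dye term its difference compares array 4 with arrays 1 and 3 only. These pairs were chosen after their values were seen, and spots of ORFs may not separate overlapping transcripts.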
